A study of Mus musculus with 2 samples.

Results

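Voltage-gated sodium channels carry the inward current of the neuronal action potential, and 8 genes of this family were followed here through nuclei of the injured mouse spinal cord. The genes were listed by name and not by their values. They encode the pore-forming alpha subunits Scn1a, Scn2a, Scn3a, Scn8a and Scn9a and the auxiliary beta subunits Scn2b, Scn3b and Scn4b. All 8 were present among the 32285 genes of both count matrices, and 6 further sodium channel subunit genes of the matrices lay outside the list. The study asks whether the proneural transcription factor NeuroD1 turns glia into neurons after injury. Both libraries came from male iNeuroD1GFP mice labelled 8 weeks old, whose spinal cords were injured at postnatal day 60 and which received tamoxifen at 100 mg/kg/day on days 5 to 8 after injury. Tissue of 3 mice was taken on day 10 and divided into an injury core and a region that the sample titles call distal and the extraction protocol calls peri-injury. Nuclei of each region, prepared from frozen tissue, gave a single 10x Genomics 3′ library, so no value has a replicate and no p-value is given. Whether the 3 mice were pooled, and which promoter drives the transgene, are not given in the sources used here. Both libraries carry the transgene, the injury and the tamoxifen, and a group without them was not analysed here.

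An alpha subunit forms the whole sodium pore with its voltage sensors and inactivation gate, while beta subunits are single-span membrane proteins that change gating and bind the channel to neighbouring proteins. In adult central neurons the channels are concentrated at the axon initial segment and at nodes of Ranvier, where ankyrin-G and spectrin hold them in place. Scn8a encodes the main channel of mature nodes, Scn1a the channel on which many fast-spiking inhibitory neurons depend, Scn2a a channel of the initial segment and of unmyelinated axons, and Scn3a a form most abundant before birth in rodents. Scn9a is best known from pain-sensing peripheral neurons. Oligodendrocyte precursor cells (OPCs) are known to carry voltage-gated sodium currents in rodents, which decline as the cells mature.

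The injury core library held 16362 barcodes with a median of 1303 UMIs (unique molecular identifiers, each a counted transcript), against 7452 barcodes with a median of 1743 UMIs in the distal library, and 38 barcode sequences occurred in both. Nuclei were clustered without the sodium channel genes and classed by marker genes. Neurons made up 8786 core and 1992 distal nuclei. The core library held few glia, with 18 OPCs, 15 oligodendrocytes and 75 astrocytes, against 372 OPCs, 1815 oligodendrocytes and 636 astrocytes in the distal library. It also held 0.299% myeloid cells and 0.697% fibroblasts, against 4.56% and 5.92% in the distal library, although its label names the lesion. Barcodes set apart from every class made up 38.2% of the core and 0.859% of the distal library where the profile was close to background, 5.44% and 13.9% where markers of several classes were mixed, 0.440% and 6.37% where blood and mitochondrial transcripts led, and 0% and 1.19% where hepatocyte genes led. The glial comparisons below therefore rest on the distal library.

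Of the 8 genes, 4 lie in a cluster of sodium channel genes on chromosome 2 (GRCm38, GENCODE M21). They are Scn3a at chr2:65457118-65567627 on the minus strand, Scn2a at chr2:65620771-65767447 on the plus strand, Scn1a at chr2:66270778-66440840 on the minus strand and Scn9a at chr2:66480080-66634962 on the minus strand. Scn8a lies apart at chr15:100869858-101045938 on the plus strand. The beta subunit genes are all on the plus strand of chromosome 9, with Scn2b at chr9:45117782-45130070 and Scn4b at chr9:45138395-45154152 next to each other and Scn3b at chr9:40269217-40291618. Opposite-strand transcripts overlap 4 of the genes, and whether the counting used strand is not known. In neurons they gave 3694 UMIs for Gm13629, which overlaps Scn9a, 242 for Gm13630 in Scn1a, 143 for Gm10684 over Scn2b and 4 for Gm13595 in Scn3a.

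The 250 bases before a RefSeq start (GRCm38.p6) are shown for Scn1a, whose start faces that of Gm13629, and for Scn8a, the alpha subunit gene that varied most alike with Scn1a between neuron clusters. In the first, capitals mark the 39 bases between the starts of Scn1a and Gm13629, and in the second they mark CG dinucleotides.
Scn1a, chr2:66440838-66441087, minus strand: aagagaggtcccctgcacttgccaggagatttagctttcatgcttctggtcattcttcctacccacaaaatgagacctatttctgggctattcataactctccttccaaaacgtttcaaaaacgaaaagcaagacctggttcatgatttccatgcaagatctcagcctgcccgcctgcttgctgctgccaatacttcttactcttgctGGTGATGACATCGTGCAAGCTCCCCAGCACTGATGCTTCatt
Scn8a, chr15:100870395-100870644, plus strand: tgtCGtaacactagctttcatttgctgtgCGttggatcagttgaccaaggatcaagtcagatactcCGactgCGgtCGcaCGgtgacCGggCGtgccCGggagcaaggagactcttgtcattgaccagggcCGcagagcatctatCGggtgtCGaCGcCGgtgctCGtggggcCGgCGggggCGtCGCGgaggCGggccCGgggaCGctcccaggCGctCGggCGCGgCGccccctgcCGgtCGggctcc
The windows differ in base composition. The Scn8a window shown holds 30 CG dinucleotides at 68.0% G and C, and the Scn1a window holds 4 at 46.8%, against medians of 6 and 52.4% over 32851 promoter windows. A second RefSeq window of Scn8a, at chr15:100936021-100936270, holds 9 at 53.2% and is not shown. The contrast thus depends on which Scn8a start is taken. RefSeq windows were found for 6 of the 8 genes, not for Scn3a and Scn3b. The letters CAGATG, an E-box form that NeuroD1 is known to bind, occurred on either strand in 0 of the 8 windows of these 6 genes and in 14.4% of all windows. The general E-box CANNTG, which includes that form, occurred in 5 of the 8 windows and in 66.2% of all windows. Those windows belong to 5 of the 6 genes, with Scn4b the exception.

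In neurons all 8 genes were detected in both libraries, and the alpha subunits other than Scn9a led per unit of gene length together with Scn2b. Levels are the UMIs of a gene per 1000000 UMIs of the class (CPM), with exact Poisson 95% intervals in parentheses that cover counting error only. Because nuclear 3′ libraries also capture intronic transcripts, levels were compared between genes per 100 kb of gene span. On that scale distal neurons held Scn8a at 175 CPM, Scn2a at 170.4, Scn1a at 164, Scn2b at 148, Scn3a at 146, Scn3b at 115, Scn9a at 63.9 and Scn4b at 32.2. Core neurons held Scn8a at 264 CPM per 100 kb, Scn2b at 206, Scn1a at 194, Scn2a at 188, Scn3a at 107, Scn3b at 80.8, Scn4b at 72.8 and Scn9a at 51.3. In both libraries Scn8a was thus the highest, and Scn9a and Scn4b were the lowest.

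In the distal library every alpha subunit gene was higher in neurons than in OPCs, astrocytes and oligodendrocytes, by the widest margin of these over oligodendrocytes and, except for Scn9a, the narrowest over OPCs. Scn1a, for example, stood at 279 CPM (265 to 293) in neurons, against 146 (120 to 176) in OPCs, 86.2 (70.9 to 104) in astrocytes and 55.2 (47.9 to 63.3) in oligodendrocytes. None of these intervals overlapped the neuronal one. Scn2a was at 249.9 CPM in neurons, against 129 in OPCs, 106 in astrocytes and 70.6 in oligodendrocytes. Scn3a followed the same order, with 161 CPM in neurons, against 98.2 in OPCs, 62.9 in astrocytes and 38.1 in oligodendrocytes. For these genes the order of the classes was the same, and OPCs stood closest to neurons among the glial classes named here. Myeloid cells stood closer still, at 164 CPM for Scn1a, 149 for Scn2a and 114 for Scn3a. Their intervals overlapped those of OPCs. For Scn8a myeloid cells were at 171 CPM, farther from neurons than OPCs. Scn8a had the narrowest margins, at 307 CPM (293 to 322) in neurons, against 216 (184 to 252) in OPCs, 161 (140.2 to 185) in astrocytes and 101 (91.1 to 112) in oligodendrocytes. The neuron-over-OPC ratio of Scn8a was 1.42 (1.21 to 1.68). Scn9a had the widest, at 98.9 CPM (90.9 to 107) in neurons, against 25.6 in astrocytes, 23.9 in OPCs and 15.1 in oligodendrocytes, a ratio of 4.14 (2.60 to 7.04) over OPCs and 6.53 over oligodendrocytes.

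The beta subunits gave few UMIs in glia and their margins were accordingly loose. Scn3b, whose product tunes channel inactivation, was at 25.7 CPM (21.7 to 30.2) in neurons, against 7.97 (2.92 to 17.3) in OPCs, 8.54 (4.26 to 15.3) in astrocytes and 4.06 (2.27 to 6.69) in oligodendrocytes. Its neuronal interval lay above those of the glial classes just named. It overlapped those of committed oligodendrocyte precursors, at 6.57 CPM (0.166 to 36.6) on 1 UMI, and of myeloid cells, at 22.3 CPM (10.2 to 42.4). Scn2b, which is linked to alpha subunits by a disulfide bond, was at 18.2 CPM (14.9 to 22.0) in neurons, against 14.7 (8.88 to 23.0) in astrocytes and 10.6 (4.58 to 20.9) in OPCs, which overlapped, and 8.92 (6.14 to 12.5) in oligodendrocytes, which did not. Scn4b was detected as 29 UMIs in distal neurons, 6 in OPCs and 5 each in astrocytes and oligodendrocytes, or 5.07, 7.97, 3.88 and 1.35 CPM, and no order among neurons, OPCs and astrocytes could be read at this depth.

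**Figure D1:**
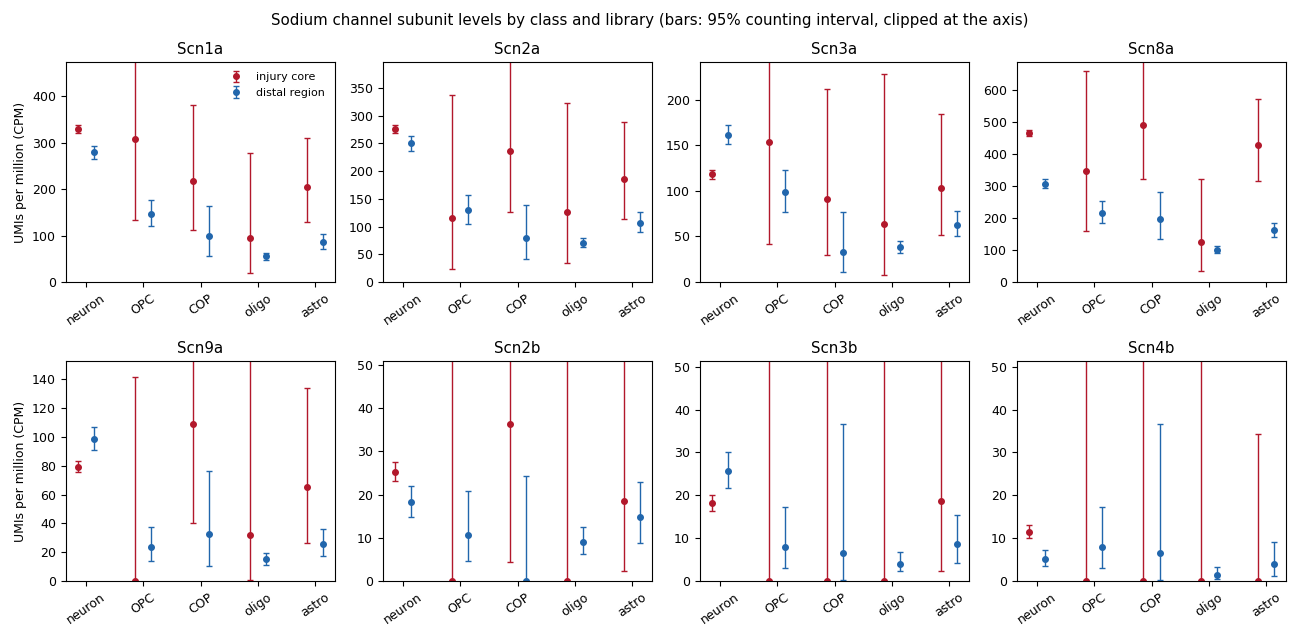
Level of each of the 8 sodium channel genes, in CPM, in neurons, OPCs, committed oligodendrocyte precursors (COP), oligodendrocytes (oligo) and astrocytes (astro) of the injury core (red) and the distal region (blue), with exact Poisson 95% intervals. In the distal library Scn1a falls in the order neuron (279), OPC (146), astrocyte (86.2) and oligodendrocyte (55.2), while the core glia, from 15 to 75 nuclei a class, have intervals that run past the axis.

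Counted at 2-fold, with 0.5 added to each UMI sum, among genes with at least 10 CPM in either class, a minimum that 7 of the 8 passed and Scn4b did not, the channel genes separated neurons from oligodendrocytes more often than from OPCs. Over oligodendrocytes 7 of 7 were at least 2-fold higher, against 22.3% of all genes, with a median log2 ratio of 2.07 over the 7 and −0.09 over all genes. Over astrocytes 5 of 7 passed, against 11.9% of all genes, with medians of 1.35 and −0.24, and Scn8a and Scn2b were those that did not. Over OPCs 2 of 7 passed, Scn9a and Scn3b, against 13.1% of all genes, with medians of 0.93 and −0.09. Over the 71 committed oligodendrocyte precursors, the stage between OPC and oligodendrocyte, 6 of 7 passed, against 21.0% of all genes, and Scn8a was the exception at 307 CPM in neurons and 197 in precursors. Scn2b and Scn3b rest there on 0 and 1 UMIs in precursors. The count over OPCs was 4 of 7 with TMM scaling, which raises every gene by 0.16 on the log2 scale and so lifts Scn1a (0.93) and Scn2a (0.95) past 2-fold. It was also 4 of 7 with coarser clustering or with each nucleus classed by its own markers, and the count over astrocytes was 3 of 7 with finer clustering. The share of all genes was not computed under these settings.

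Genes that act with these channels followed them only in part. Of all genes, 16.0% were at least 2-fold lower in neurons than in oligodendrocytes, 13.4% than in OPCs and 17.5% than in astrocytes. The fibroblast growth factor homologous factors bind the tails of alpha subunits and set their inactivation. Of the 4, the 3 past the minimum against oligodendrocytes were all at least 2-fold higher in neurons, led by Fgf14 at 4174 CPM in neurons and 646 in oligodendrocytes (ratio 6.46, 6.19 to 6.74) and Fgf13 at 288 and 60.3 (4.78, 4.15 to 5.52). Over OPCs, where all 4 were past the minimum, Fgf13 and Fgf14 passed at 2.93 and 2.19, while Fgf12 reached 1.45. Fgf11 was not higher in neurons. Of the 6 scaffold genes of the initial segment and node, 4 were at least 2-fold higher in neurons than in oligodendrocytes, led by Sptbn4, the spectrin of these sites, at 5.82 and Nrcam, a cell adhesion molecule, at 4.0, and Nfasc, whose glial form is made by oligodendrocytes, was lower at 0.416. Over OPCs Cntnap1, a paranodal adhesion protein, at 2.91 and Sptbn4 at 2.22 were higher, and Nrcam was lower at 0.374. Over astrocytes Sptbn4 was higher at 3.66 and Nfasc lower at 0.499. Of the leak channel partners in the matrix, 3 of 3 passed over oligodendrocytes, led by Fam155a at 7.06 and Unc79 at 6.01, 3 of 3 over astrocytes, led by Unc80 at 2.92 and Unc79 at 2.89, and 0 of 3 over OPCs.

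Scn7a, Scn4a, Scn10a and Scn11a were scarce, while Nalcn was not. Scn7a, a channel that does not respond to voltage, was at 10.1 CPM in distal neurons and 1.89 in oligodendrocytes (5.36, 2.44 to 13.9), and Nalcn, the sodium leak channel, at 352 and 107 CPM (3.29, 2.95 to 3.67). Scn4a, the skeletal muscle form, gave 0 UMIs in the neurons of both libraries, and the sensory neuron forms Scn10a and Scn11a gave 4 and 2 UMIs in distal neurons. Of the RE1 silencing complex, which is known to repress sodium channel genes outside neurons, 0 genes were at least 2-fold higher or lower in distal neurons than in OPCs or oligodendrocytes. Against committed precursors 3 of 5 were at least 2-fold lower, Rcor2, Hdac1 and Sin3a, as were 21.8% of all genes, on 2, 8 and 9 UMIs in precursors and with intervals that spanned 1. Rcor2 was also lower in neurons than in astrocytes at 0.217 (0.125 to 0.379). Rest itself, at 3.67 CPM in neurons, 7.97 in OPCs and 8.38 in oligodendrocytes, was under the minimum.

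Relative to neuron marker transcripts, the channel genes were higher in distal OPCs than in the other 6 non-neuronal classes compared. Free RNA gives UMIs of neuronal genes in nuclei that do not express them, so the summed channel genes were set beside 6 neuron markers, Rbfox3, Snap25, Syt1, Snhg11, Elavl3 and Stmn2. In OPCs the 8 channel genes stood at 55.9% of their neuronal level and the 6 markers at 31.5% of theirs, a ratio of 1.77. In the other classes the 2 percentages were close to each other, with 25.7% and 27.5% in oligodendrocytes (0.937), 41.0% and 36.5% in astrocytes (1.12), 39.6% and 35.9% in committed precursors (1.1), 42.7% and 39.0% in fibroblasts (1.1), 60.0% and 54.6% in myeloid cells (1.1) and 41.4% and 35.1% in endothelial cells (1.18). The channel level as such was no higher in OPCs, at 639.9 CPM summed, than in myeloid cells at 687. Elavl3 went against its use as a marker, at 329.8 CPM in neurons and 516 in oligodendrocytes. Without it the ratio was 2.0 in OPCs and 1.11 to 1.36 in the other classes, with oligodendrocytes at 1.30.

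Set directly against oligodendrocytes, whose median depth of 1742 UMIs was close to the 1568 of OPCs, the channel genes summed to 639.9 CPM in OPCs and 294 in oligodendrocytes, a ratio of 2.17 (1.95 to 2.42). The 6 markers differed by 1.15 (1.08 to 1.22), and the 5 without Elavl3 by 1.42 (1.33 to 1.51), with single markers between 1.23 for Snhg11 and 1.90 for Snap25. Among the alpha subunits the ratio was 2.65 (2.08 to 3.35) for Scn1a, 2.58 (1.92 to 3.44) for Scn3a, 2.14 (1.77 to 2.58) for Scn8a and 1.82 (1.43 to 2.31) for Scn2a. Scn1a, Scn3a and Scn8a thus had intervals above those of both marker sums, and Scn1a above that of every single marker except Snap25, Rbfox3 and Stmn2, whose intervals reached 2.28, 2.10 and 2.73. Scn9a was at 1.58 (0.873 to 2.72). The beta subunits Scn2b and Scn3b, with 8 and 6 UMIs in OPCs, had intervals that spanned 1, and Scn4b had the largest ratio of the 8, 5.89 (1.5 to 24.4), on 6 UMIs in OPCs and 5 in oligodendrocytes. Against astrocytes the channel genes were again higher in OPCs, at 1.36 (1.21 to 1.54), while the 6 markers were lower, at 0.864 (0.810 to 0.922).

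**Figure D2:**
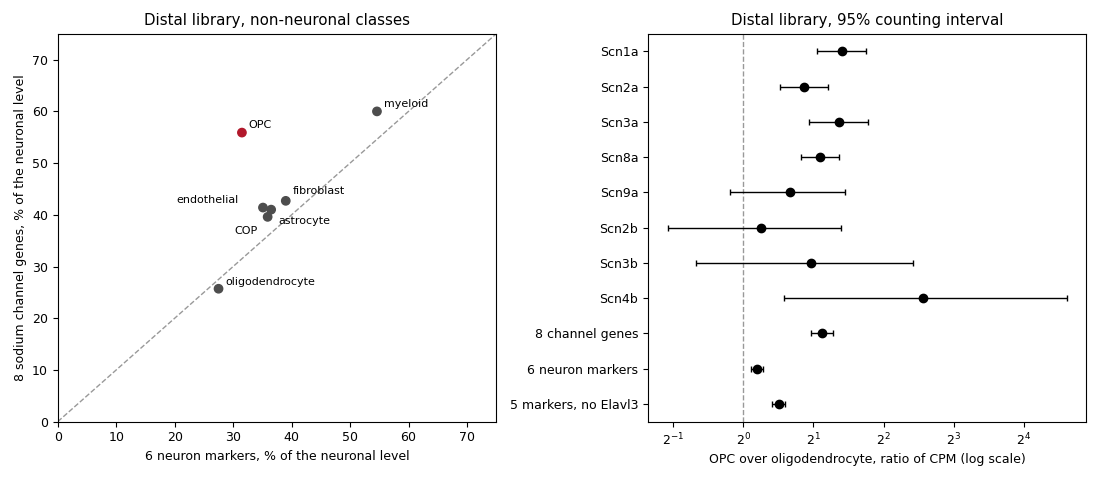
Left, summed level of the 8 sodium channel genes against that of 6 neuron markers in each non-neuronal class of the distal library, both in percent of the neuronal level, with the line of equality dashed. OPCs (31.5% and 55.9%) stand farthest above the line. Right, ratio of OPC to oligodendrocyte level on a log scale for each gene and for the sums, with 95% counting intervals; the channel genes sum to 2.17, the 6 markers to 1.15 and the 5 without Elavl3 to 1.42.

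Channel genes were also found in a larger share of OPCs than of oligodendrocytes and astrocytes. Shares of nuclei with the neuron markers are not given here. At least 1 UMI of any channel gene was found in 85.2% of distal neurons, 64.2% of OPCs, 48.4% of astrocytes and 42.7% of oligodendrocytes. After thinning every nucleus to 1000 UMIs these shares were 64.2%, 50.2%, 34.6% and 27.3%. Of distal myeloid nuclei 40.3% held such a UMI, and after thinning 59 of 118 did, close to 155 of 309 OPCs. The share after thinning was therefore not particular to OPCs. Scn8a was found in 30.9% (26.3 to 35.9) of OPCs and 17.7% (16.0 to 19.6) of oligodendrocytes, or 22.7% and 10.2% after thinning, with 36 OPCs holding 2 or more of its UMIs. Scn1a was found in 23.7% (19.4 to 28.3) of OPCs and 10.2% (8.84 to 11.7) of oligodendrocytes, or 13.9% and 5.91% after thinning. The highest count in any OPC was 4 UMIs, for Scn1a, Scn3a, Scn8a and Scn9a.

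Channel UMIs were also found in nuclei without a single UMI of the 6 markers, in each class examined. The 23 such OPCs held 22 channel UMIs, or 759.8 CPM (476 to 1150.4), against 373 CPM (252 to 533) in 78 astrocytes and 289 CPM (217 to 377) in 136 oligodendrocytes, at median depths of 1239, 902 and 1168 UMIs. The OPC interval lay above that of oligodendrocytes and overlapped those of astrocytes, of 58 fibroblasts at 529.9 CPM (349 to 771) and of 48 myeloid cells at 369 CPM (202 to 619). Gm13629, the transcript that starts beside Scn1a, was chosen after its values were seen. It made up 17.9% (11.8 to 25.5) of the summed Scn1a and Gm13629 UMIs in OPCs, against 30.0% (28.1 to 31.9) in neurons, 31.1% (25.9 to 36.7) in oligodendrocytes and 28.8% (21.9 to 36.6) in astrocytes. The OPC interval did not overlap those of neurons and oligodendrocytes. The low share was not particular to OPCs, since relative to Scn1a the level of Gm13629 was 21.8% in OPCs, against 42.8% in distal neurons as a whole but 15.4% in distal cluster 4 and 17.5% in distal cluster 19. Scn9a made up 3.73% (2.23 to 5.84) of the channel UMIs in OPCs and 8.64% (7.97 to 9.35) in neurons, with oligodendrocytes at 5.14% and astrocytes at 5.45%. With the 5% of nuclei of highest doublet score removed the OPC ratio of channel genes to markers was 1.83. The part of free RNA and of nuclei of other classes in the OPC level was not tested.

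The core library did not allow the same reading. Its glia carried the 6 markers at 79.3% of the neuronal level in OPCs, 70.0% in astrocytes and 43.3% in oligodendrocytes, and the channel genes at 69.9%, 77.6% and 33.4%. At least 2-fold higher in core neurons were 2 of 8 over OPCs (7.41% of all genes), 2 of 8 over oligodendrocytes (13.4%) and 1 of 8 over astrocytes (10.0%), by the same rule with 0.5 added to each UMI sum. Without that addition Scn2a (2.18, 0.852 to 8.01) and Scn9a (2.52, 0.451 to 99.4) were past 2-fold over oligodendrocytes too, beside Scn1a (3.48, 1.19 to 16.9) and Scn8a (3.68, 1.44 to 13.5), on 1 to 4 UMIs each in oligodendrocytes. Scn9a, Scn2b, Scn3b and Scn4b had 0 UMIs in core OPCs, which allows each up to 142 CPM. The background-like barcodes of the core held the channel genes at 1393 CPM (1364 to 1422), against 1322 CPM (1306 to 1338) in core neurons, a higher level with an interval that did not overlap.

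Within neurons the alpha subunits did not vary together, and Scn3a ran against Scn1a and Scn8a. Over 14 neuron clusters of at least 100 nuclei, both libraries summed, Scn2a was the most even, between 208 and 303 CPM. Scn3a ranged between 100.2 CPM in cluster 12 and 297 CPM (251 to 349) in cluster 19, whose leading genes include Fer1l6 and Nmur2 and which held 4 core and 274 distal nuclei. The same cluster 19 had the lowest Scn1a, 128 CPM (98.5 to 164), the lowest Scn8a, 124 CPM (94.9 to 159), and the lowest Scn9a, 24.4 CPM (12.6 to 42.7). Its intervals for these genes overlapped those of no other cluster except, for Scn9a, cluster 4 with 45.4 CPM (36.8 to 55.4), cluster 15 with 46.9, cluster 5 with 51.6 and cluster 22 with 52.2. Within the distal library alone, cluster 19 over the other neurons was at 292 and 149 CPM for Scn3a (1.97, 1.63 to 2.35), 129.6 and 292 CPM for Scn1a (0.443) and 121 and 325 CPM for Scn8a (0.374). Cluster 19 also had the lowest neuron marker score of the 14 clusters, 0.241, with cluster 22 next at 0.288. Oligodendrocyte markers stood in it at 0.192 of their usual level. The part of either in its channel levels was not tested.

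Scn8a was highest in cluster 1, at 537 CPM (524 to 551), which holds 4477 core and 60 distal nuclei and has Syt2 among its leading genes. Clusters 1 and 10 were close within each library, at 539 and 529 CPM in the core and 462 and 453 CPM in the distal region. In the sum of both libraries cluster 10 came next at 459.6 CPM and cluster 13 at 455, which did not differ beyond their intervals from each other or from cluster 12 at 429.9. Cluster 10, with 40 core and 430 distal nuclei, is led by genes that include Prph and Chat, the enzyme of acetylcholine synthesis. In the sum of both libraries it had the highest Scn9a, 153 CPM (136 to 171), which overlapped clusters 21 at 104 (74.1 to 142) and 26 at 101 (70.2 to 142). It was not the highest within either library. Distal cluster 21, with 26 nuclei, was at 163 CPM against 158 in cluster 10. Core cluster 26, with 41 nuclei, was at 111 CPM against 94.0 in cluster 10. Within the distal library, cluster 10 over the other neurons was at 158 and 70.2 CPM for Scn9a (2.25, 1.90 to 2.67), 453 and 236 CPM for Scn8a (1.92, 1.75 to 2.11) and 110.0 and 186 CPM for Scn3a (0.593). In the core, where the cluster holds 40 nuclei, it was at 94.0 and 79.4 CPM for Scn9a (1.18, 0.675 to 1.93) and 529 and 465 CPM for Scn8a (1.14, 0.914 to 1.4). Scn1a was highest in cluster 12, led by Maf and Tnfaip8l3, at 386 CPM (349 to 425), which overlapped clusters 10, 1, 18, 13 and 22. Of the beta subunits, Scn4b was highest in cluster 12 too, at 23.6 CPM (15.3 to 34.9), overlapping among others cluster 1 at 13.4 (11.4 to 15.7), and Scn3b was lowest in clusters 1, 10 and 12, at 12.5, 13.7 and 14.2 CPM. Outside the list, Scn7a reached 46.1 CPM in cluster 13.

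**Figure D3:**
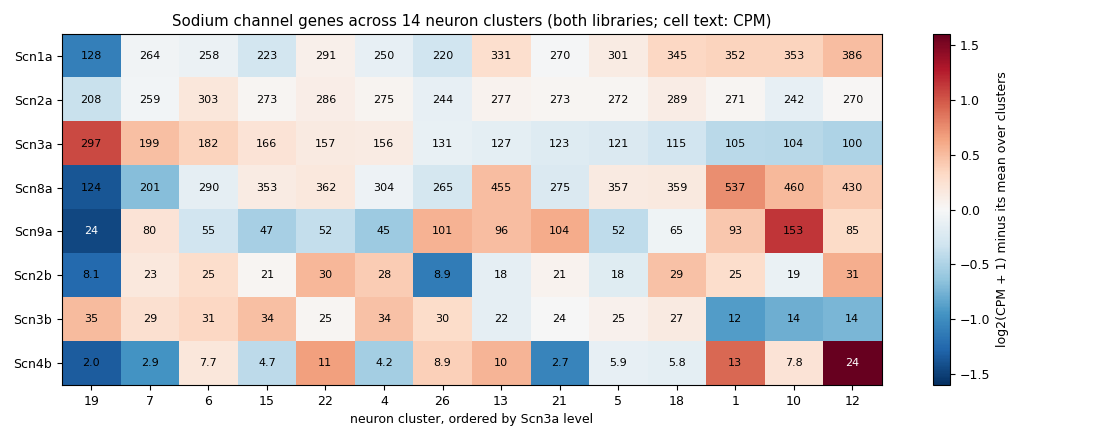
Level of the 8 sodium channel genes in 14 neuron clusters, ordered by Scn3a, with CPM as cell text and colour for log2(CPM + 1) minus the gene's mean over clusters. Scn3a is highest (297) and Scn1a (128) and Scn8a (124) are lowest in cluster 19, at the left.

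Across the 14 clusters Pearson's r of log2(CPM + 1) was 0.87 between Scn1a and Scn8a, −0.87 between Scn1a and Scn3a and −0.86 between Scn3a and Scn8a. Among the beta subunits Scn3b went with Scn3a (0.74) and against Scn1a (−0.73) and Scn8a (−0.71), Scn4b went with Scn8a (0.75) and Scn2b with Scn2a (0.80). Clusters share libraries, depth and background RNA, so these values describe the clusters and carry no test. Among 8965 genes, those most like Scn8a were Zfyve28 (0.99), Lrrfip1 (0.95) and Vwa5b2 (0.94), among those most like Scn3a were Celf6 (0.94) and Gm16105 (0.92), and those most like Scn9a were Slit2 (0.90), Pnpt1 (0.90) and Socs6 (0.89). For Scn2a they were Dbt (0.88), Zc3h13 (0.87) and Prss22 (0.87). For the beta subunits they were Zswim3 (0.91), Heatr6 (0.91) and Ipo5 (0.89) for Scn2b, Brd8 (0.91), Cacna1e (0.87) and Ncam1 (0.86) for Scn3b, and Osbp2 (0.91), Pdzrn3 (0.88) and Slc4a8 (0.86) for Scn4b.

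Scn1a was most like Gm13629 (0.97), then Sgpp2 (0.94) and Clstn3 (0.93). Gm13629 starts at position 66440880 of chromosome 2 on the plus strand, 39 bases from the start of Scn1a as shown in capitals above, and runs into Scn9a, with which its r was 0.77. Its level was 151 CPM in core and 119 CPM in distal neurons. It ranged between 22.4 CPM in cluster 19 and 201 CPM in cluster 10. Relative to Scn1a it was not constant, at 17.5% of the Scn1a level in cluster 19 and 56.9% in cluster 10. Since strand use in the counting is not known, UMIs of Gm13629 and of Scn9a in their overlap cannot be told apart from each other.

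**Figure D4:**
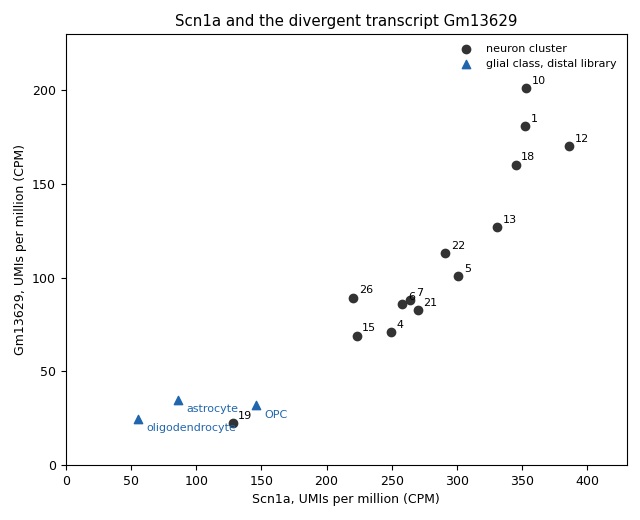
Level of Gm13629 against that of Scn1a, both in CPM, in 14 neuron clusters of both libraries (circles, cluster numbers beside them) and in 3 glial classes of the distal library (triangles). The clusters run between cluster 19 (128 and 22.4) and clusters 10, 1 and 12 at the upper right, and OPCs (146 and 31.9) lie near cluster 19.

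Neurons sorted by transmitter genes differed in Scn9a in the distal library. Inhibitory neurons (Gad1, Gad2 or Slc6a5 without Slc17a6) held Scn9a at 133 CPM (115 to 154), against 72.0 CPM (55.2 to 92.3) in excitatory neurons (Slc17a6 alone), a ratio of 1.85 (1.39 to 2.51), and 38 nuclei with Chat or Slc5a7, some of which may also fall in the other groups, held it at 160.1 CPM (115 to 216). The intervals of the inhibitory and the excitatory neurons did not overlap. Scn3a was lower in inhibitory than in excitatory neurons, at 127 and 175 CPM (0.726, 0.582 to 0.906). In the core library Scn9a was at 79.2 CPM in 1986 inhibitory nuclei and 85.8 CPM in 773 excitatory nuclei (0.924, 0.774 to 1.11), and the core ratios of all 8 genes lay between 0.850 and 1.06. Scn1a, the gene tied to inhibitory neurons in other regions, was at 321 and 319 CPM in the distal library (1.0, 0.864 to 1.17) and at 342 and 339 CPM in the core (1.01, 0.925 to 1.1). Over excitatory neurons of the distal library, 2 of 7 genes were at least 2-fold higher in nuclei with Chat or Slc5a7, Scn9a (2.22, 1.47 to 3.34) and Scn2b (2.39, 0.834 to 6.52), where 11.7% of all genes were that much higher. Scn3b was lower, at 7.62 CPM against 32.5 CPM (0.235, 0.0271 to 0.930), where 10.5% of all genes were that much lower. In the core the Scn9a ratio was 1.24 (0.846 to 1.76). Cluster 10 was not set apart in these sums, and its part in them was not tested.

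Over all neurons, the core library held more Scn8a and Scn4b and less Scn3a and Scn3b than the distal library, and of these Scn8a and Scn3a kept their direction within each of 4 neuron clusters. Scn8a was at 465 CPM (456 to 475) in core neurons, against 307 (293 to 322) in distal neurons, a ratio of 1.51 (1.44 to 1.59). Scn3a was at 118 CPM (113 to 123) in core neurons, against 161 (151 to 172) in distal neurons (0.733, 0.679 to 0.792). The 2 libraries did not overlap in either gene. Outside neurons Scn8a was also higher in the core, at 429 and 161 CPM in astrocytes and 440.1 and 171 in myeloid cells. In fibroblasts it was at 359 and 121 CPM. It was not higher in mural cells (0 and 3 UMIs) or in background-like barcodes (403 and 426 CPM). The Scn8a difference was thus not particular to neurons, and the part of free RNA in it was not tested. Scn1a was at 329 and 279 CPM in core and distal neurons (1.18, 1.12 to 1.25), Scn2a at 276 and 249.9 (1.1, 1.04 to 1.17) and Scn9a at 79.5 and 98.9 (0.803). Of the beta subunits Scn2b was at 25.3 and 18.2 CPM (1.39), Scn3b at 18.1 and 25.7 (0.704) and Scn4b at 11.5 and 5.07 (2.26, 1.53 to 3.46; 229 and 29 UMIs). Scn4b was thus the gene past 2-fold, 1 of 8. It passed the minimum level by its core value alone, since 5.07 CPM in distal neurons lay under that minimum. By the same rule 0.646% of all genes were that much higher and 5.31% that much lower. With 1 gene near the minimum, no enrichment is read from this count. The median log2 ratio was 0.19 over the 8 and −0.01 over all genes. Summed, the 6 neuron markers had a core over distal ratio of 1.20 (1.18 to 1.21), in the direction of Scn1a, Scn2a and Scn8a. Singly they did not move as one. Rbfox3, Snhg11, Elavl3 and Snap25 were at 1.36, 1.35, 1.30 and 1.20, Stmn2 at 0.963 (0.882 to 1.05) and Syt1 at 0.903 (0.883 to 0.923).

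The neurons compared were not the same clusters, since cluster 1 supplied 4477 of the 8786 core nuclei and clusters 10, 19, 4 and 7 supplied 430, 274, 265 and 262 of the 1992 distal ones. Within the 4 clusters with at least 100 nuclei in both, Scn8a was higher in the core in each, by 1.37 in cluster 4, 1.18 in cluster 5, 1.22 in cluster 6 and 2.44 (1.84 to 3.28) in cluster 7, and the interval excluded 1 in clusters 4 and 7. In cluster 7 it was past 2-fold, as were 7.20% of all genes. Scn3a was lower in each, at 0.731, 0.973, 0.801 and 0.725, with intervals that excluded 1 in clusters 4 and 7. Scn3b went both ways, at 0.482, 2.20, 0.869 and 0.919, and so did Scn9a, at 1.56, 0.588, 0.883 and 0.972. Scn4b rested on 9 and 0, 10 and 1, 8 and 2 and 3 and 1 UMIs in core and distal nuclei. Without cluster 1 the median was 0.11 and 0 of 7 genes passed 2-fold, and without cluster 10 it was 0.31. Hoxd11, a gene of posterior cord levels, gave 387 UMIs in core neurons and 0 in distal neurons, where 3 UMIs would make 0.524 CPM. Region and cord level therefore cannot be told apart.

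**Figure D5:**
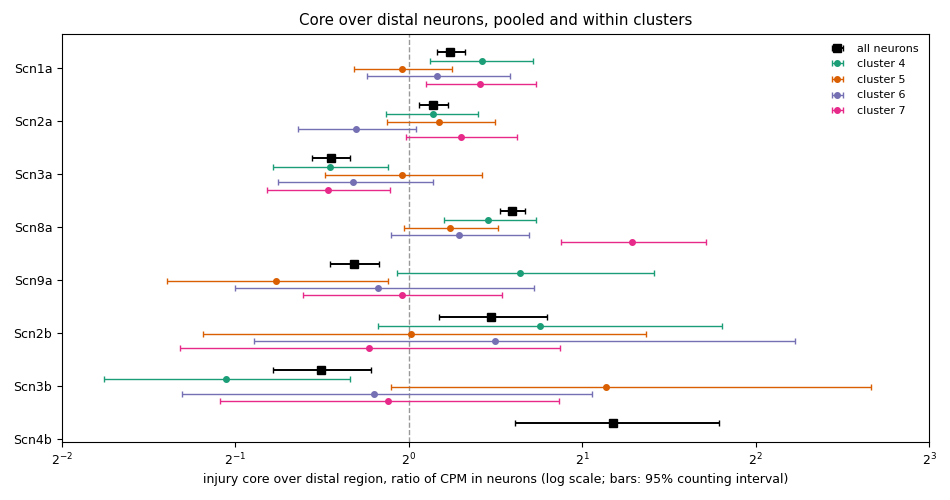
Ratio of core to distal level in neurons for the 8 sodium channel genes, on a log scale with 95% counting intervals, over all neurons (black squares) and within neuron clusters 4, 5, 6 and 7 where both libraries held at least 5 UMIs. Scn8a lies above 1 (1.51 over all neurons) and Scn3a below it (0.733) in all neurons and in each cluster.

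The genes that act with the channels moved little between the libraries, and 0 of those past the minimum reached 2-fold in either direction. The nearest were the scaffold genes Sptbn4, at 599 CPM in core and 335 CPM in distal neurons (1.78, 1.70 to 1.87), and Cntnap1 at 72.6 and 46.3 CPM (1.57, 1.37 to 1.79), both chosen after their values were seen.

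Nuclei with a Neurod1 UMI did not stand apart in channel level from nuclei of the same class without it, weighted to the same depths. In 76 positive core neurons the 8 genes summed to 1389 CPM (1244 to 1546), against 1353 CPM in the other core neurons, and in 26 positive distal neurons to 1169 CPM (974 to 1391), against 1205 CPM. In 25 positive distal astrocytes they summed to 426 CPM (304 to 579.5) from 40 UMIs, against 491 CPM in the other astrocytes. In 21 positive distal oligodendrocytes they summed to 296 CPM (172 to 473) from 17 UMIs, against 273 CPM. Every interval held the level of the negative nuclei, and differences smaller than these intervals were not detectable at this depth. Fewer than 20 OPCs were positive, and they were not compared. Because classes were set by markers, a glial nucleus that had gained neuronal transcripts could have been classed elsewhere. Whether glia became neurons therefore cannot be read from these sums. A single Neurod1 UMI could also come from free RNA, which was not tested.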

How the data were processed

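Nuclear RNA of the injury core and the distal region was measured in 1 library each. Per the file headers the authors deposited UMI counts per gene and barcode, raw and not normalised, written by Cell Ranger 7.1.0. The submitters' processing notes name Cell Ranger, Seurat, GRCh38 and mm10 without their roles, and the annotation and strand setting are not given in the sources used here. Of the 32285 features, 32235 (99.8%) had a gene in GENCODE M21, which gave positions, and RefSeq gave promoter windows. The 8 genes and all gene lists were chosen with earlier results of these data known.

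Each barcode had to show 300.0 genes or more and no more than 5% mitochondrial UMIs, which left 16360 core and 7443 distal barcodes. The libraries held 30469263 and 19049572 UMIs in all. Scanpy 1.11.5 and leidenalg 0.10.2 (resolution 1, 2000 variable genes, 40 components, 15 neighbours, Python 3.11.15) clustered both libraries together, leaving out 14 sodium channel genes, Neurod1, mitochondrial and sex-linked genes. The doublet caller marked 0 core and 20.0% of distal nuclei and was taken not to have worked, so doublets were left in. Clusters took the class with the highest marker score. The rules that set clusters apart were chosen after the markers had been seen. They asked for a dispersion under 1.1 for background-like clusters, 3 blood or mitochondrial genes among the 10 leading genes, or more than 1.5 times the library's median depth with a second class's markers at over 0.25 of their usual level for mixed clusters.

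UMIs were summed per class and library and divided by the class total as CPM. Intervals are exact Poisson, Clopper-Pearson or conditional 95% intervals. The ratio intervals were tested on simulated data. A gene counted as higher or lower at 2-fold, with 0.5 added to each UMI sum, and at least 10 CPM in 1 group. Named were all 8 genes, at most 2 genes per direction and list past 2-fold, and the 3 genes most alike over clusters for genes with at least 200 neuronal UMIs. Alternatives were other filters, clusterings, single-nucleus classes, thinning to 1000 UMIs, TMM factors (edgeR 4.0.16) and median-of-ratios factors. The comparison of channel genes with neuron markers, and leaving out clusters, Elavl3 or shared barcodes, were added after the data had been seen. A few genes that these rules cover are not reported here.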

Additional observations from a re-analysis of the deposited data

Results flagged for a closer look

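Channel transcripts were also found in barcodes that entered no comparison, above the limit that a count of 0 allows. The 8 genes summed to 1393 CPM in background-like barcodes of the core and 1108 CPM in those of the distal region, and to 1176 and 699 CPM in mixed barcodes. Barcodes led by blood and mitochondrial genes held them at 1183 CPM in the core and 946 CPM in the distal region, and hepatocyte-like barcodes of the distal region at 698 CPM. The part of free neuronal RNA in these levels was not tested.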

How the results depend on the processing

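Of 107 alternative values of the medians and of the channel-to-marker ratios, 93 stayed within the counting spread, 14 moved, and 0 of those whose base was past 2-fold changed sign, and of 448 alternative levels of single genes 405 stayed within their interval. For a median that spread ran between the medians of the single genes' lower and upper interval bounds. It is not the counting error of the median and is wide where UMIs are few. A value within it can still lie far from the main one or have the other sign. With each nucleus classed by its own markers, the median log2 ratio of neurons over OPCs in the distal library was 1.31. The channel-to-marker ratio was then 2.09 in OPCs, 1.04 in oligodendrocytes and 1.58 in astrocytes. That setting classes a nucleus partly by the neuron markers in this ratio, so its ratios are no check on the main ones. After thinning the channel-to-marker ratios of the same classes were 2.20, 1.01 and 1.27, and the median of core over distal neurons was 0.29. Without Elavl3 they were 2.0 in OPCs and 1.30 in oligodendrocytes, and with coarser clustering 1.57 in OPCs. The median of core over distal neurons was 0.33 with TMM scaling, which shifts every gene by 0.14, 0.11 without cluster 1 and 0.31 without cluster 10. The cause of these moves was not tested. Counts of genes past 2-fold changed by over 1.5 times in 3 comparisons. Over OPCs of the distal library the count was 2, with 4 under coarser clustering, TMM or single-nucleus classes and 3 after thinning. Over astrocytes it was 5, with 3 under finer clustering. Between core and distal neurons it was 1, with 0 at a minimum of 500 genes, under coarser clustering or without cluster 1. Medians over all alternatives ran between 0.68 and 1.31 over distal OPCs, 1.85 and 2.13 over oligodendrocytes and 0.98 and 1.62 over astrocytes. In the core they ran between −1.14 and 1.28 over OPCs around 0.18, and 3 of them changed sign, at −0.07 with a minimum of 500 genes, −0.37 after thinning and −1.14 with single-nucleus classes. Depth limits the beta subunits in glia and all core glia. No paired analysis was possible because each region has 1 library.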
